A study of Mus musculus with 16 samples.

Results

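The 45 genes described here are Wnt ligands, their receptors, their secreted antagonists and genes that act in or answer to the pathway. They were taken by gene name from a list of the pathway, drawn up with earlier results of these data known, out of 27807 genes in the expression table. They comprise 19 ligands of the Wnt family, 10 Frizzled (Fzd) receptors, the 2 co-receptors Lrp5 and Lrp6, the 2 genes Porcn and Wls that ready Wnt proteins for secretion, 7 secreted antagonists and 5 nuclear effectors or targets. Poly-A RNA-seq was made of embryonic stem cells (ESCs) of the mouse and of embryoid bodies (EBs), the floating aggregates that ESCs form when they differentiate. The cells were either wild type (WT, Taf4+/+) or lacked Taf4a on both alleles (KO, Taf4a-/-), and Taf4a encodes a subunit of the general transcription factor TFIID. EBs were collected before retinoic acid (RA) was added (EB4), after the first day of RA (EB5) and some days on (EB8), as ESCs were led towards neurons. The 16 libraries fell into 8 groups of 2, a group for each genotype and stage, from 2 independent ESC lines of each genotype. All lines came from blastocysts of crosses between heterozygous mice, and the ESCs of both genotypes were grown with LIF on feeder layers of mouse embryonic fibroblasts, so that ES libraries can hold feeder RNA.

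Wnt proteins are secreted signals that carry a lipid. The lipid is attached by the acyltransferase Porcn, and the carrier Wls takes the finished protein to the cell surface. At a receiving cell a Wnt protein binds a Frizzled receptor, with Lrp5 or Lrp6 as co-receptor in the canonical branch, which stabilises beta-catenin and lets it act with the DNA-binding factors Lef1, Tcf7, Tcf7l1 and Tcf7l2. Secreted Frizzled-related proteins (Sfrp1, Sfrp2, Sfrp5 and Frzb) bind Wnt proteins outside the cell, and Dkk1 blocks the Lrp co-receptors. In the embryo this signalling is known for its part in the primitive streak and in the dorsal neural tube, where Wnt1 marks cells at the midline.

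Values are normalised read counts, that is, a gene's reads scaled for the depth of its library, and the depth was 22442118 to 40711826 reads per library. All ES libraries were deeper than all EB libraries, so that stage and depth cannot be told apart in the step from ES to EB4. The count of Taf4a was between 1591 and 1959.6 in the 8 WT libraries and between 1973 and 2400.0 in the 8 KO libraries, and a count over the whole gene holds reads from outside the deleted exons and so does not check the genotype. The EB8 samples are labelled as neural precursor cells. The summed level of 13 neural tube genes was 32901 and 26720 in WT EB8. In KO EB8 it was 4705 and 4071, below both WT EB5 libraries (14257 and 24181). Nes alone made up 12104 and 7454 of the WT EB8 sums and 2831 and 3312 of the KO EB8 sums. In WT ES the sums were 6965 and 1599, of which Nes made up 6666 and 1407. The summed level of 12 pluripotency genes went from 112984 and 165638 in WT ES to 5700 and 7650 in WT EB8, and was 38085 and 36763 in KO EB8. Some libraries stood apart by chromosome. Here the log2 level of each gene was taken against that gene's median over the 16 libraries. The median of this value over X-linked genes was 0.36 to 0.58 in replicate 2 of WT ES and in replicate 2 of KO at every stage. That of chromosome 8 was 0.42 to 0.43 in replicate 1 of WT at EB4, EB5 and EB8. That of chromosome 11 was 0.15 to 0.23 in replicate 1 of KO at every stage. Among the 45 genes Porcn is X-linked, Sfrp1 lies on chromosome 8, and Wnt3, Wnt3a, Wnt9a, Wnt9b, Fzd2, Axin2 and Tcf7 lie on chromosome 11.

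Of the 45 genes, 42 had a mean of at least 10 normalised counts over the libraries and were tested; Wnt8b, Wnt16 and Dkk2 were not. In ESCs none of the 42 passed the threshold of an adjusted p of 0.05 (limma, Benjamini-Hochberg over 16124 genes), against 0.0% of all genes tested. An unadjusted p under 0.05 was reached by 11 of the 42 (11.4% of all genes), edgeR called 0 and DESeq2 called 3, namely Wnt4, Wls and Dkk3. At EB4 the level of 6 genes differed between genotypes, or 14.3% against 6.12% of all genes. Porcn was higher in KO (2.75% of all genes were), and Fzd3, Fzd4, Fzd8, Lrp5 and Tcf7l1 were lower (3.37% of all genes were). At EB5 there were again 6, all lower in KO, or 14.3% against 4.34% in either direction, 2.17% lower and 2.17% higher: Fzd3, Fzd4, Fzd8, Wls, Sfrp2 and Sfrp5. At EB8 there were 16, or 38.1% against 22.9%, of which 3 were higher in KO (Wnt8a, Fzd5 and Porcn; 10.4% of all genes were higher) and 13 lower (Wnt1, Wnt5a, Wnt5b, Fzd3, Fzd4, Fzd8, Fzd9, Fzd10, Sfrp1, Sfrp2, Frzb, Dkk3 and Tcf7l2; 12.5% of all genes were lower). In bulk RNA, fewer cells of a type and less RNA per cell cannot be told apart.

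The 4 counts rest on 2 libraries a group. Without KO EB4 replicate 2 the count at EB4 was 0, without WT EB4 replicate 1 it was 2 and without WT EB4 replicate 2 it was 3. At EB5 it was 0 without KO EB5 replicate 2 and 1 without WT EB5 replicate 2. At EB8 it was 7 without WT EB8 replicate 1 or KO EB8 replicate 1, and 9 without WT EB8 replicate 2 or KO EB8 replicate 2. The EB8 calls of Wnt8a, Fzd3, Porcn and Sfrp2 held without any of the 16 libraries and without all libraries of either replicate number of either genotype.

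The genes as a set sat below their WT level in KO libraries more often than above it. Both KO libraries lay below both WT libraries for 19 of the 42 genes in ESCs, where 20.7% of all genes did so, and above both for 1 (19.0% of all genes). The same counts were 18 below and 4 above at EB4 (26.6% and 25.3% of all genes), 21 and 12 at EB5 (28.1% and 26.7%), and 21 and 6 at EB8 (33.5% and 30.4%). The median log2 change, KO minus WT, was -0.57 in ESCs, -0.49 at EB4, -0.34 at EB5 and -0.61 at EB8, while the median over all tested genes lay between -0.03 and 0. These counts are a description of the 42 genes, with no test of the set.

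**Figure D1:**
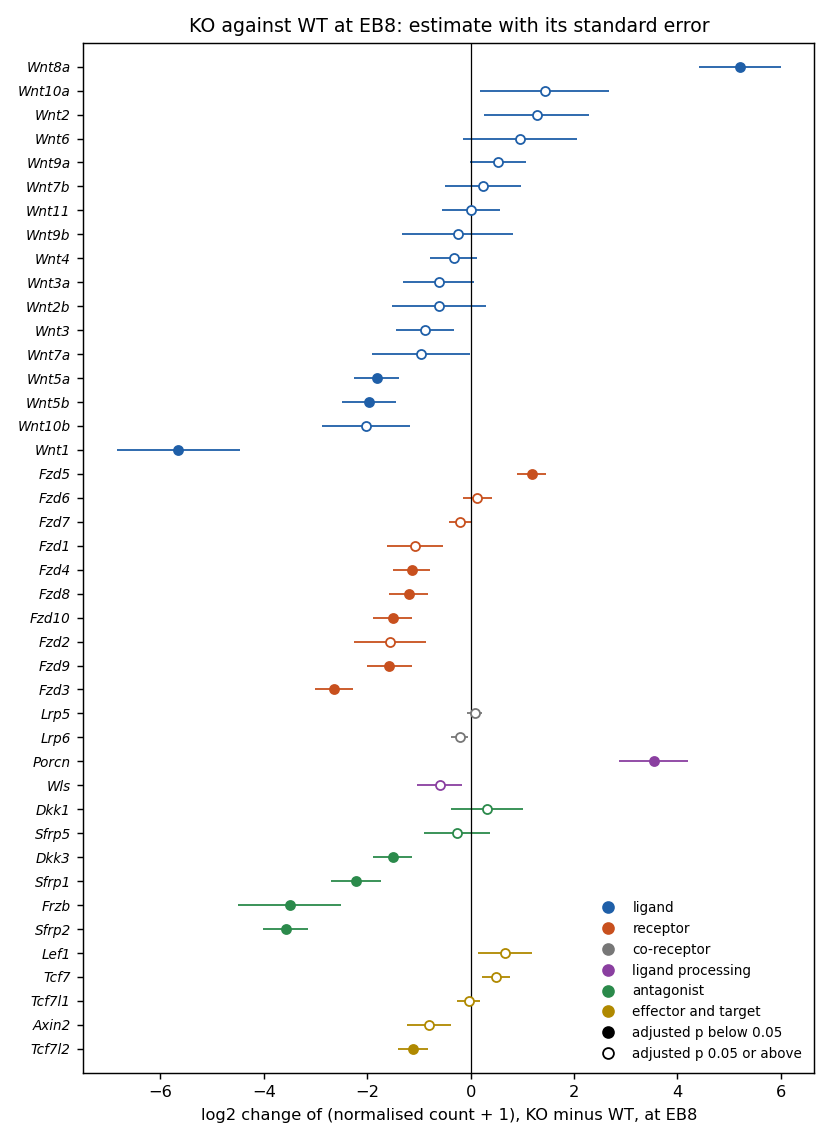
Log2 change of the normalised count plus 1, KO minus WT, at EB8 for the 42 tested genes, ordered by role and coloured by it; points are estimates, bars their standard error, and filled points have an adjusted p under 0.05 (limma, 2 libraries against 2). The 13 filled points on the left include 5 Frizzled receptors and 4 antagonists, and the 3 on the right are Wnt8a (5.21), Porcn (3.54) and Fzd5 (1.18).

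Among the ligands lower in KO at EB8 was Wnt1, the signal of the dorsal midline of the neural tube (chromosome 15, 98620288 to 98624268, plus strand, build NCBI37). Wnt1 had 0 reads in both WT ES libraries, which allows up to 3, and 0 and 7.5 normalised counts in WT EB4. The WT libraries reached 188 and 445 at EB5 and 611 and 2125 at EB8. In KO it had 0 reads at ES and EB4, 24.7 and 8.7 normalised counts at EB5, and 79.1 and 5.3 at EB8. Wnt1 rose in WT from EB4 to EB5 (log2 change 6.64 ± 1.19, standard error (SE), 2 libraries against 2; limma, adjusted p = 0.00796). At EB8 both KO libraries were far below both WT libraries, by 32.4 times in the group means (log2 change -5.66 ± 1.19, adjusted p = 0.00531). At EB5 the gap was -4.20 ± 1.19 with an adjusted p of 0.0677, and the libraries did not overlap there either. The EB8 call was lost without WT EB8 replicate 2 or KO EB8 replicate 2 (highest adjusted p 0.109). The 2 libraries of a group differed several-fold, and the rise in WT was lost with edgeR, in a fit of only the groups compared, and without WT EB4 replicate 1 or WT EB5 replicate 2.

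Wnt8a, a ligand of the primitive streak and posterior embryo (chromosome 18, 34701967 to 34707927, plus strand), went the other way. It was at 96.5 and 100.5 normalised counts in WT ES and at 79.7 and 101.5 in KO ES, where the libraries overlapped. At EB4 it was at 212 and 77.2 in WT against 407 and 202 in KO, and at EB5 at 160.0 and 17.6 against 373 and 214. At EB8 the WT libraries held 2.1 and 3.2, at the floor of 3 reads, and the KO libraries 113 and 155. The KO level at EB8 was thus at least 42.3-fold higher than the WT floor of 3 reads a library (log2 change on the count plus 1 scale 5.21 ± 0.80, adjusted p = 0.000857). In WT, Wnt8a fell from EB5 to EB8 (-3.93 ± 0.80, adjusted p = 0.00902). The genotypes did not pass the threshold at EB4 (1.16, adjusted p = 0.427) or EB5 (2.38, adjusted p = 0.116), and the difference between genotypes in the step from EB5 to EB8 was 2.83 with an adjusted p of 0.405. The fall in WT was lost without WT EB5 replicate 1 or WT EB8 replicate 1. Of 8 tested genes that mark the primitive streak, Eomes and Nodal were higher in KO at EB8 and Lhx1 was lower, with a median log2 change of 0.96. Of all genes, 10.4% were higher at EB8 and 12.5% lower. The summed level of the 9 listed at EB8 was 2813 and 5163 in WT against 1727 and 1587 in KO. In WT it is nearly all Lhx1 (2730.3 and 5043), which is not specific to the streak. Nodal at EB8 rose from 33.6 and 65.6 (WT) to 819.8 and 963 (KO). It was highest in ESCs (WT 2358 and 2944, KO 2099 and 3101), so it does not mark the streak alone either. T (WT 6.3 and 3.2, KO 8.4 and 38.3) and Mixl1 (WT 1.1 and 4.2, KO 7.4 and 3.2) were low at EB8 and not called. Of the 8 tested, both KO libraries lay above both WT libraries at EB8 for 3 and below for 2. The streak genes named here were picked after their values were seen, and their part in the Wnt8a result was not tested.

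Wnt5a and Wnt5b, ligands best known for signalling that does not pass through beta-catenin, were lower in KO at EB8. Wnt5a was at 417 and 823 in WT EB8 and at 165 and 165 in KO EB8 (-1.82 ± 0.44, adjusted p = 0.0109). It rose in WT from EB4 (46.0 and 57.9) to EB5 (171 and 298; 2.11 ± 0.44, adjusted p = 0.0186), where KO held 103 and 49.5. Wnt5b was at 225 and 284 in WT EB8 and at 57.0 and 72.4 in KO EB8 (-1.96 ± 0.52, adjusted p = 0.0183). For both genes the 2 KO libraries lay below the 2 WT libraries at EB5 and EB8. The call of Wnt5b was lost on leaving out any library of WT EB8 or KO EB8, and that of Wnt5a without WT EB8 replicate 2 or KO EB8 replicate 1. An opposite-strand gene shares exon sequence with Wnt5a in the annotation, and whether strand was used in counting was not stated, so its reads may hold some of that gene.

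**Figure D2:**
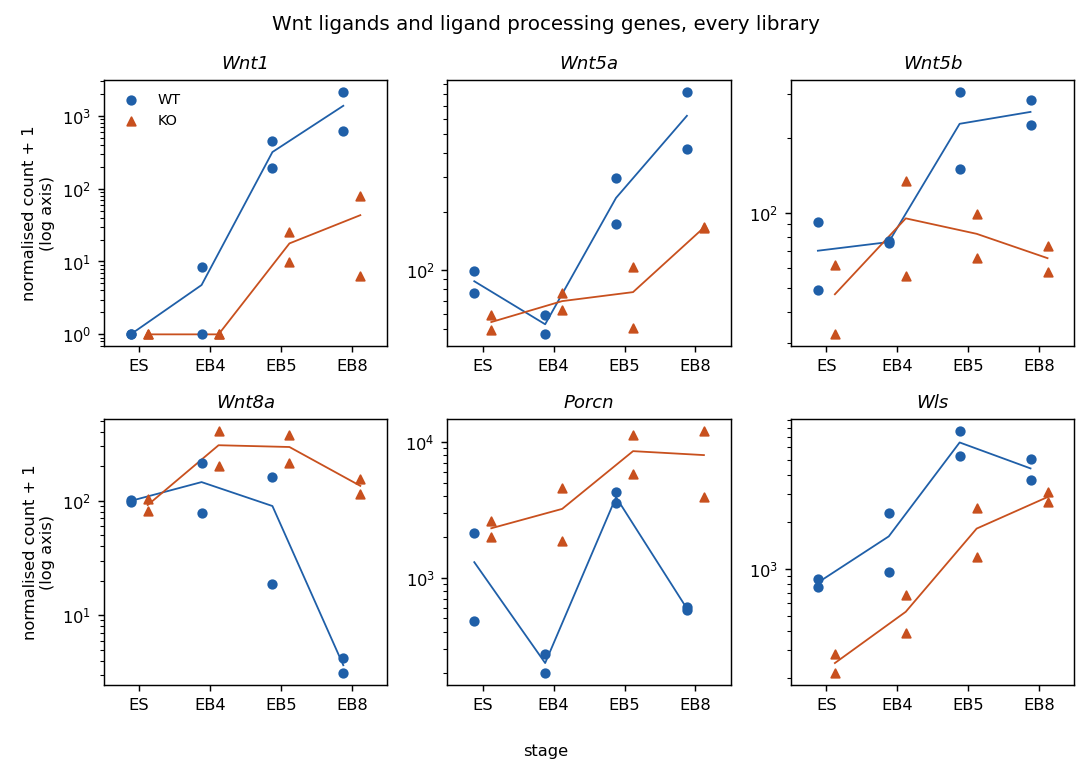
Normalised counts plus 1 on a log axis in every library, by stage, for 4 ligands and for the processing genes Porcn and Wls; circles are WT, triangles KO, and lines join the means of the 2 libraries. At EB8 the WT libraries of Wnt1 (611 and 2125) lie above the KO libraries (79.1 and 5.3), and those of Wnt8a and Porcn lie below.

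Wnt6 and Wnt7a dipped and returned in WT. Wnt6 was at 142 and 87.7 in WT ES, at 1.1 and 23.6 in EB4, at 5.6 and 25.3 in EB5 and at 143 and 372 in EB8, so it fell from ES to EB4 (-3.97 ± 1.10, adjusted p = 0.0287) and rose from EB5 to EB8 (4.13 ± 1.10, adjusted p = 0.0319). Wnt7a was at 122 and 46.2, at 1.1 and 19.3, at 5.6 and 3.3 and at 165 and 61.4 at the same stages, with a fall of -3.55 ± 0.95 (adjusted p = 0.0253) and a rise of 4.25 ± 0.95 (adjusted p = 0.0142). Both falls were lost in a fit of only the groups compared, and without WT ES replicate 1 or WT EB4 replicate 1. That of Wnt6 was also lost with edgeR and without WT ES replicate 2. In KO, Wnt6 was at 52.3 and 54.3 at ES, 17.5 and 5.1 at EB4, 46.5 and 31.0 at EB5 and 988 and 205 at EB8. Wnt7a was at 15.8 and 10.0, at 3.5 and 12.8, at 9.5 and 10.7 and at 50.6 and 52.2 in KO. Neither gene passed the threshold in any KO step, or between genotypes at any stage. By group means, Wnt6 in KO was 4.71 times lower at EB4 than at ES (9.3 times in WT). From EB5 to EB8 it rose 15.4 times in KO and 16.6 times in WT. For Wnt7a the fall was 1.58 times in KO and 8.25 times in WT, and the rise 5.1 and 25.3 times. The missed threshold thus does not show that KO lacked the dip and return. For Wnt6 at EB8 the genotype difference was 0.96 (adjusted p = 0.570) and changed sign to -0.17 without KO EB8 replicate 1, the library at 988.

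Wnt4, Wnt2 and Wnt3a were called between stages but not between genotypes. Wnt4 rose in WT from EB5 (99.7 and 81.3) to EB8 (343 and 784; 2.51 ± 0.45, adjusted p = 0.00463), and its KO libraries were at 171 and 150 at EB5 and 365 and 469 at EB8. Wnt2 rose in WT from EB4 (1.1 and 2.1, at the floor) to EB5 (31.1 and 80.2), at least 17.1-fold (limma, adjusted p = 0.0374). The KO libraries of Wnt2 went from 4.7 and 0.0 at EB4 to 62.6 and 28.1 at EB5. This was 19.4 times in the group means, though it did not pass the threshold. Wnt3a rose in WT over the same step by 3.05 ± 0.69 (adjusted p = 0.0284), after a fall of Wnt3a from ES to EB4 (-2.39 ± 0.69, adjusted p = 0.0339). Wnt3a, which acts in the tail bud, was one of 3 members called as rising in KO from EB4 to EB5 (3.37 ± 0.69, adjusted p = 0.0226), from 8.2 and 2.6 to 52.1 and 65.0. The remaining tested ligands, Wnt2b, Wnt3, Wnt7b, Wnt9a, Wnt9b, Wnt10a, Wnt10b and Wnt11, passed the threshold in none of the 13 comparisons. Wnt10b was at 28.2 and 13.6 in WT ES, 19.7 and 70.8 in EB4, 111 and 198 in EB5 and 70.4 and 234 in EB8, against 9.1 and 2.1, 7.0 and 8.9, 50.2 and 30.1, and 59.1 and 16.0 in KO. Its KO libraries lay below its WT libraries at every stage, with changes of -2.11 (adjusted p = 0.163) at EB4 and -2.02 (adjusted p = 0.109) at EB8. Wnt10b lies 11706 bases from Wnt1 on chromosome 15, on the opposite strand.

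The ligands were also ordered by level per kb of exon. By the mean of the 2 libraries, the leading gene was Wnt7b in ESCs of both genotypes. In WT ES, WT EB4, WT EB5, KO EB5 and KO EB8 the leader overlapped with the next gene. In WT ES it was Wnt7b (125 and 140 normalised counts per kb, overlapping with Wnt3 at 140 and 40.2), in WT EB4 Wnt9a (55.6 and 137, overlapping with Wnt8a at 121 and 44.2), in WT EB5 Wnt1 (78.7 and 186, overlapping with Wnt9a at 108 and 66.0) and in WT EB8 Wnt1 (256 and 888, above Wnt4 at 81.9 and 187). In KO it was Wnt7b at ES (147 and 78.4, above Wnt8a at 45.6 and 58.1), Wnt8a at EB4 (232.8 and 115.5, just above Wnt7b at 51.9 and 114), Wnt8a at EB5 (213 and 123, overlapping with Wnt7b at 97.3 and 149) and Wnt6 at EB8 (477.5 and 98.9, overlapping with Wnt9a at 234.5 and 130.2). Wnt1 took 28.7% and 42.1% of the ligand sum in the 2 WT EB8 libraries. The sum over the 19 ligands at EB8 was 889.9 and 2111 per kb in WT against 1358 and 672 in KO, which overlapped. These are orders of levels, described without a test. Opposite-strand genes share exon sequence with Wnt7b and Wnt11 in the annotation. As strand use in counting was not stated, the counts of Wnt7b and Wnt11 may hold reads of those genes.

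**Figure D3:**
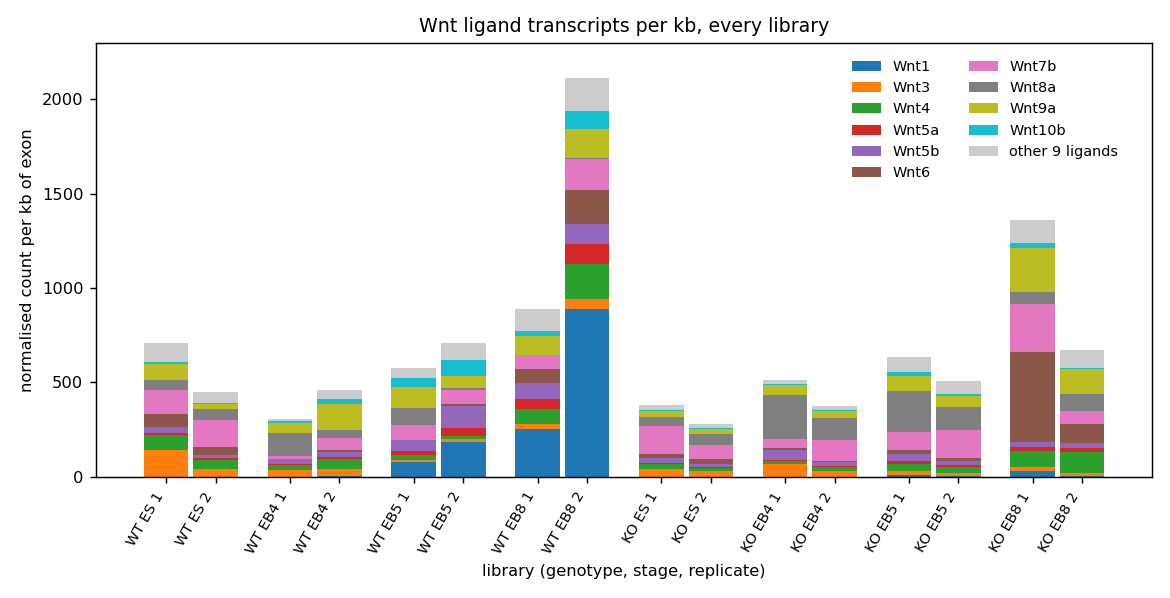
Normalised counts per kb of exon of the Wnt ligands in each of the 16 libraries, stacked by gene, with 9 other ligands pooled. The 2 WT EB8 bars are led by Wnt1 (256 and 888 per kb) and the 2 KO EB4 bars by Wnt8a (232.8 and 115.5).

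Porcn and Wls, which act in turn on Wnt proteins, stood on opposite sides of WT: Porcn was higher in KO at EB4 and EB8, and Wls was lower in KO at EB5. Porcn (X chromosome, 7770974 to 7783651, minus strand) was at 474 and 2120.0 in WT ES, 196 and 271 in EB4, 4269 and 3544 in EB5 and 604 and 577 in EB8. In KO it was at 1994 and 2616, 1845 and 4558, 5774 and 11269, and 3916 and 12024. In WT the level dipped at EB4 and peaked at EB5, with a fall from ES to EB4 (-2.12 ± 0.66, adjusted p = 0.0465), a rise to EB5 (4.07 ± 0.66, adjusted p = 0.00396) and a fall to EB8 (-2.72 ± 0.66, adjusted p = 0.0213), while no step passed the threshold in KO. Porcn was higher in KO by 13.7 times at EB4 (3.65 ± 0.66, adjusted p = 0.0121) and by 13.5 times at EB8 (3.54 ± 0.66, adjusted p = 0.00272). At EB5 the libraries did not overlap, but the change of 1.05 had an adjusted p of 0.400, and at ES the libraries overlapped (1.19, adjusted p = 0.539).

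X-linked genes as a whole were high in replicate 2 of KO and in replicate 2 of WT ES. KO replicate 1, whose X-linked genes were not high, had 3916 counts of Porcn at EB8 against at most 604 in WT. Without KO replicate 2 the EB8 change of Porcn was 2.73 (adjusted p = 0.0492) and the EB4 change 2.99 (adjusted p = 0.242), and with chromosome levels subtracted they were 3.32 (adjusted p = 0.000276) and 3.33 (adjusted p = 0.00313). The EB4 call was also lost without WT EB4 replicate 1. The fall of Porcn in WT from ES to EB4 was lost without WT ES replicate 2, the WT library with high X-linked genes, and without any one of 10 others. The part of the X-linked levels in the Porcn results was not tested.

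Wls (chromosome 3, 159502701 to 159598797, plus strand) was at 766 and 861 in WT ES, 945 and 2277 in EB4, 5242 and 7658 in EB5 and 3712 and 5081 in EB8. In KO it was at 282 and 212, 673 and 384, 2435 and 1180, and 2678 and 3081, below WT at every stage. Wls rose in WT from EB4 to EB5 by 4.0 times (2.11 ± 0.43, adjusted p = 0.0161). The genotypes differed at EB5 (-1.90 ± 0.43, adjusted p = 0.0311), but not past the threshold at ES (-1.73, adjusted p = 0.139), EB4 (-1.53, adjusted p = 0.0549) or EB8 (-0.60, adjusted p = 0.344). At ES, 12 fibroblast genes could be tested, and both KO libraries lay below both WT libraries for 6 of them (20.7% of all genes). The summed level of the 14 listed fibroblast genes was 14743 and 8670 in WT ES and 5833 and 1641 in KO ES. Of these sums Tagln made up 11039 and 2913 in WT ES and 4783 and 434.5 in KO ES. The part of feeder RNA in the ES values of the Wnt genes was not tested. The EB5 call was lost without either WT EB5 library or without KO EB5 replicate 2.

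The Frizzled receptors, to which Wnt proteins bind, had 6 of 10 genes called at EB8 (60.0%, against 22.9% of all genes); the share was 66.7% for the antagonists, 4 of 6. At EB4 and EB5, Fzd3, Fzd4 and Fzd8 were lower in KO, and at EB8 these 3, Fzd9 and Fzd10 were lower and Fzd5 was higher. Of the 10 receptors, 8 had both KO libraries below both WT libraries at EB4, 7 at EB5 and 7 at EB8, with median changes of -1.20, -0.92 and -1.17. Over all genes the shares with both KO libraries below were 26.6%, 28.1% and 33.5%.

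Fzd3, a receptor known for axon guidance and planar polarity (chromosome 14, 65819863 to 65881300, minus strand), was at 299 and 238 in WT ES, 456 and 948 in EB4, 1007 and 1990 in EB5 and 3894 and 4556 in EB8. In KO it was at 170 and 136, 210 and 158, 540 and 391, and 634 and 717. The WT level rose from ES to EB4 (1.30 ± 0.37, adjusted p = 0.0326) and again from EB5 to EB8 (1.57 ± 0.37, adjusted p = 0.0183), and no KO step passed the threshold. The KO level was lower by 3.81 times at EB4 (-1.84 ± 0.37, adjusted p = 0.0175), 3.22 times at EB5 (-1.62 ± 0.37, adjusted p = 0.0334) and 6.25 times at EB8 (-2.64 ± 0.37, adjusted p = 0.000519). Per kb, Fzd3 was level with Fzd7 at the head of the receptors in WT EB8, at 921 and 1078 against 974 and 963. The EB4 call was lost without WT EB4 replicate 2 or KO EB4 replicate 2, and the EB5 call without WT EB5 replicate 2 or either KO EB5 library.

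Fzd4, which also binds the non-Wnt ligand Norrin, rose to EB5 in both genotypes and then fell in WT (-1.78 ± 0.36, adjusted p = 0.00808), while its KO libraries at EB5 and EB8 overlapped. It was at 81.9 and 70.2 in WT ES, 206 and 172 in EB4, 2145 and 2639 in EB5 and 828 and 582 in EB8, and at 40.7 and 36.5, 65.4 and 52.3, 460 and 249, and 237 and 418 in KO. The rise from EB4 to EB5 was 12.7 times in WT (3.65 ± 0.36, adjusted p = 0.000122) and 6.02 times in KO (2.51 ± 0.36, adjusted p = 0.00237). KO was lower by 3.21 times at EB4 (-1.67 ± 0.36, adjusted p = 0.0213), 6.75 times at EB5 (-2.81 ± 0.36, adjusted p = 0.00681) and 2.15 times at EB8 (-1.14 ± 0.36, adjusted p = 0.0367). The EB4 call was lost without either WT EB4 library or KO EB4 replicate 2, and the EB5 call without KO EB5 replicate 2 (highest adjusted p 0.191). The EB8 call was lost on upper-quartile rescaling, on quantile normalisation, with no filter on low values, and without either WT EB8 library or KO EB8 replicate 1.

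Fzd8, a receptor of the anterior embryo (chromosome 18, 9212854 to 9216199, plus strand), rose 7.59 times in WT from ES (137 and 94.1) to EB4 (914 and 843; 2.94 ± 0.38, adjusted p = 0.00106) and was at 1603 and 2213 in EB5 and 1329 and 936 in EB8. In KO it was at 117 and 112 at ES, 305 and 165 at EB4, 860 and 453 at EB5 and 601 and 392 at EB8. The ES libraries overlapped, and the KO libraries were lower at each later stage, by 3.74 times at EB4 (-1.96 ± 0.38, adjusted p = 0.0149), 2.91 times at EB5 (-1.59 ± 0.38, adjusted p = 0.0373) and 2.28 times at EB8 (-1.20 ± 0.38, adjusted p = 0.0379). The difference between genotypes in the step from ES to EB4 was -1.97 with an adjusted p of 0.519. The EB4 call was lost without either WT EB4 library or KO EB4 replicate 2, the EB5 call without either WT EB5 library, KO EB5 replicate 2 or either KO ES library, and the EB8 call without any EB8 library or either KO ES library, and on upper-quartile rescaling.

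**Figure D4:**
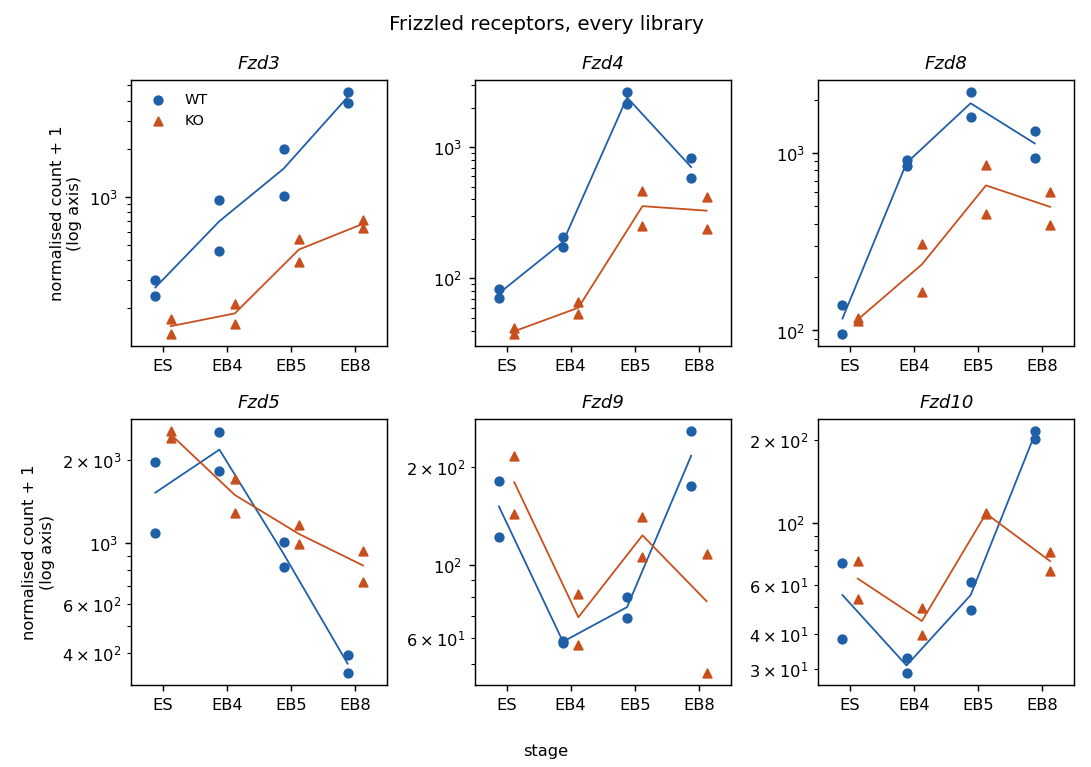
Normalised counts plus 1 on a log axis in every library, by stage, for 6 Frizzled receptors; circles are WT, triangles KO, and lines join the means of the 2 libraries. For Fzd3, Fzd4 and Fzd8 the KO libraries lie below WT at EB4, EB5 and EB8, and for Fzd5 they lie above WT at EB8 (938 and 720.1 against 336 and 393).

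Fzd5 was the only receptor called higher in KO. It was at 1964 and 1084 in WT ES, 1830 and 2537 in EB4, 817 and 1011 in EB5 and 336 and 393 in EB8, and at 2406 and 2555, 1705 and 1285, 1162 and 996, and 938 and 720.1 in KO. The WT level fell at both steps after EB4 (-1.24 ± 0.28, adjusted p = 0.0271, and -1.32 ± 0.28, adjusted p = 0.0104), and no KO step passed. At EB8 KO was 2.27 times higher (1.18 ± 0.28, adjusted p = 0.00991), a call that was lost without WT EB8 replicate 1 or KO EB8 replicate 1.

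Fzd9 and Fzd10 rose in WT at the last step and stood lower in KO at EB8. Fzd9 was at 121 and 179 in WT ES, 57.0 and 57.9 in EB4, 79.0 and 68.1 in EB5 and 256 and 174 in EB8, and at 214 and 142, 80.6 and 56.2, 105 and 140, and 108 and 45.8 in KO. Fzd10 was at 71.0 and 37.5, 31.8 and 27.9, 48.0 and 60.4, and 201 and 214 in WT and at 52.3 and 72.2, 38.6 and 48.5, 108 and 107, and 66.5 and 77.8 in KO. The KO libraries of both genes thus lay above WT at EB5 and below WT at EB8. The EB8 changes were -1.57 ± 0.43 (adjusted p = 0.0211) for Fzd9 and -1.51 ± 0.38 (adjusted p = 0.0133) for Fzd10. The difference between genotypes in the step from EB5 to EB8 was -2.50 ± 0.54 for Fzd10 (adjusted p = 0.0568) and -2.29 ± 0.61 for Fzd9 (adjusted p = 0.136). No member passed the threshold for any such difference between genotypes in a step, against 0.0% of all genes for ES to EB4 and for EB4 to EB5 and 0.781% for EB5 to EB8. Unadjusted p-values under 0.05 were reached by 5, 5 and 9 members (7.0%, 2.96% and 9.72% of all genes); edgeR called 0 in each, and DESeq2 called 0, 0 and 5 (Fzd4, Fzd9, Fzd10, Sfrp5 and Tcf7l2). The Fzd9 call at EB8 was lost without WT EB8 replicate 1 or KO EB8 replicate 2, and the Fzd10 call without either WT EB8 library or KO EB8 replicate 1. The annotation holds a pseudogene entry of the same name over Fzd10, so that its counts are uncertain.

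Fzd7, the leading receptor per kb in every group but WT EB8, rose in WT from 4192 and 3083 in ES to 10238 and 9754 in EB4 (1.47 ± 0.21, adjusted p = 0.00172) and fell from 8063 and 8718 in EB5 to 4677 and 4625 in EB8 (-0.85 ± 0.21, adjusted p = 0.0225). In KO EB8 it was at 4774 and 3431, on either side of WT (-0.20, adjusted p = 0.530). Fzd1, Fzd2 and Fzd6 passed the threshold in no comparison. Fzd1 was at 229 and 90.9, 182 and 330.3, 416 and 717, and 852 and 1331 in WT from ES to EB8, and at 75.5 and 45.7, 146 and 60.0, 273 and 172, and 497 and 508 in KO, below WT at every stage. Fzd2 was lower in both KO libraries at every stage, by -1.93 (adjusted p = 0.119) at EB4, -1.75 (adjusted p = 0.172) at EB5 and -1.56 (adjusted p = 0.125) at EB8. Its KO libraries differed widely, at 1452 and 332 in EB4. Fzd6 was at -1.03 at EB4, just outside the threshold (adjusted p = 0.0502).

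Of the co-receptors, Lrp5 was lower in KO at EB4, at 3064 and 2434 against 4883 and 4208 in WT (-0.73 ± 0.15, adjusted p = 0.0179), and its levels at EB8 overlapped, at 2754 and 2700.4 against 2449 and 2726. Both Lrp5 and Lrp6 rose in WT from ES to EB4, each by 0.87 on the log2 scale (adjusted p = 0.00341 and 0.00477). At ES it was at 2354 and 2607 in WT and 1941 and 1779.6 in KO, and at EB5 at 3404 and 3328 in WT and 2709.7 and 2799 in KO. Lrp6 was not called between genotypes, with -0.21 (adjusted p = 0.379) at EB8. The EB4 call of Lrp5 was lost without WT EB4 replicate 1 or KO EB4 replicate 2.

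Of the 6 tested secreted antagonists, 2 were lower in KO at EB5 and 4 at EB8, and none was called higher at any stage. Of all genes, 2.17% were lower at EB5 and 12.5% at EB8. Their summed level per kb at EB5 was 2177 and 3792 in WT against 831 and 600.4 in KO, and at EB8 it was 3350 and 2773 against 446 and 715. At ES the sums were 697 and 1050 in WT and 698 and 1066 in KO.

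Sfrp2 (chromosome 3, 83570243 to 83578238, plus strand) had the lowest adjusted p of all members at EB8. It was at 395 and 249 in WT ES, 1180.4 and 567 in EB4, 997 and 1550 in EB5 and 2760 and 2464 in EB8, and at 217 and 209, 557 and 290, 466 and 247, and 174 and 272 in KO. KO was lower by 3.57 times at EB5 (-1.87 ± 0.44, adjusted p = 0.0360) and by 11.7 times at EB8 (-3.58 ± 0.44, adjusted p = 0.000239). The EB8 call held without each library (highest adjusted p 0.0089), whereas the EB5 call was lost without either WT EB5 library, KO EB5 replicate 2, either WT EB8 library or either KO ES library. A gene on the other strand shares exon sequence with Sfrp2 in the annotation.

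Sfrp1 was at 1988 and 3636 in WT ES, 1909 and 2987 in EB4, 2825 and 3232 in EB5 and 6794 and 5132 in EB8, and at 2484 and 4066, 1012 and 2365, 890.3 and 1561, and 867 and 1845 in KO. The libraries overlapped at ES and EB4, and KO was lower by 4.40 times at EB8 (-2.22 ± 0.48, adjusted p = 0.00592). With the levels of its chromosome 8 subtracted the change was -2.01 (adjusted p = 0.012). Frzb went from 4.6 and 2.4 in WT ES to 38.4 and 116 in EB4 (3.97 ± 1.00, adjusted p = 0.0197), 169 and 348 in EB5 and 356 and 564 in EB8. In KO it had 0 reads in both ES libraries, 95.8 and 16.6 counts at EB4, 298 and 31.0 at EB5 and 28.5 and 52.2 at EB8. Frzb rose in KO too from ES to EB4, at least 24.2-fold over the floor (adjusted p = 0.0190), and at EB8 it was lower in KO by 11.4 times (-3.50 ± 1.00, adjusted p = 0.0246), a call lost without any single EB8 library. The Sfrp1 call was lost without KO EB8 replicate 1 (highest adjusted p 0.0631), and without all WT replicate 1 libraries, of which those of EB4, EB5 and EB8 had high chromosome 8 levels, it was -2.02 with an adjusted p of 0.0606.

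Dkk3, a divergent member of the Dkk family, was at 112 and 249 in WT ES, 126 and 95.4 in EB4, 225 and 241 in EB5 and 1069 and 728 in EB8, and at 57.3 and 56.5, 58.4 and 61.3, 182 and 134, and 327 and 291 in KO. It rose in WT from EB5 to EB8 (1.92 ± 0.37, adjusted p = 0.00621) and was lower in KO at EB8 by 2.91 times (-1.51 ± 0.37, adjusted p = 0.0113). Its KO libraries were below its WT libraries at every stage, in ESCs by -1.54 (adjusted p = 0.133). The EB8 call was lost without WT EB8 replicate 1 or KO EB8 replicate 2.

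**Figure D5:**
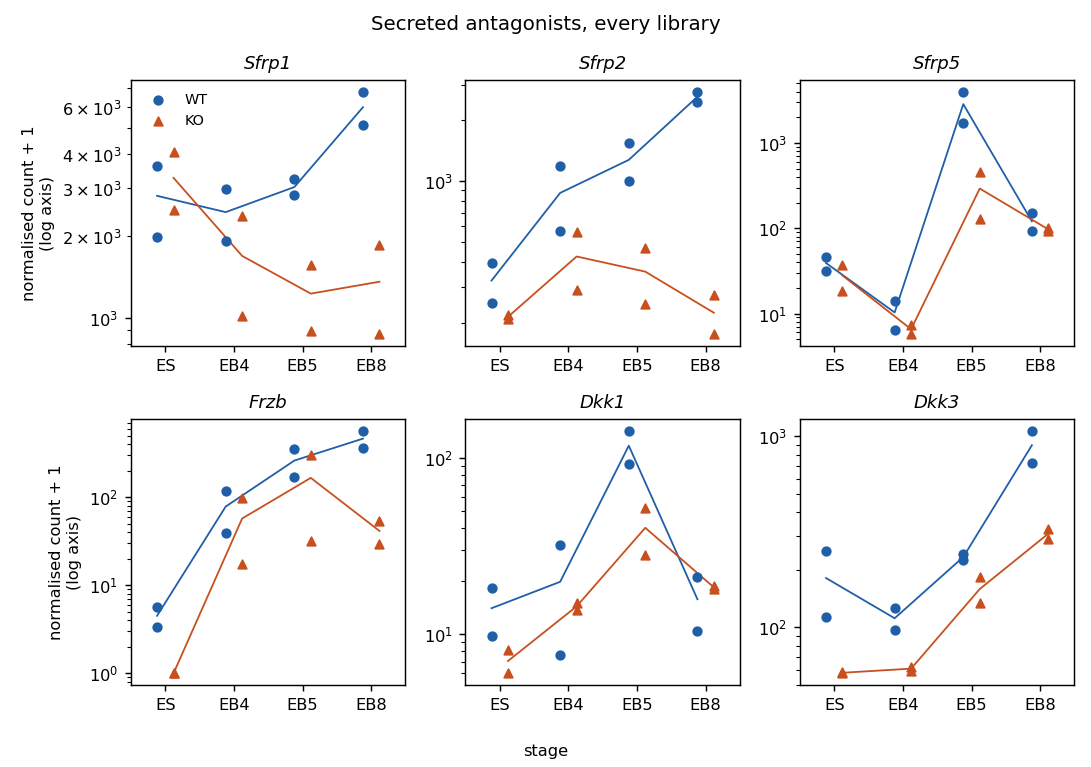
Normalised counts plus 1 on a log axis in every library, by stage, for 6 secreted antagonists; circles are WT, triangles KO, and lines join the means of the 2 libraries. In WT the means of Sfrp5 and Dkk1 are highest at EB5, with Sfrp5 at 1730 and 3980 in WT against 454 and 129 in KO, and for Sfrp1, Sfrp2, Frzb and Dkk3 the KO libraries lie below WT at EB8.

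Between EB4 and EB5, over the first day of RA, Sfrp5 had the largest rise of the 42 genes in both genotypes. Sfrp5 (chromosome 19, 42272461 to 42276742, minus strand) was at 30.9 and 45.4 in WT ES and 13.2 and 5.4 in EB4, reached 1729.5 and 3979.6 in EB5 and was at 148 and 91.1 in EB8. In KO it was at 17.4 and 36.5, 4.7 and 6.4, 454 and 129, and 92.8 and 99.1. The rise from EB4 to EB5 was 308-fold in WT (8.11 ± 0.64, adjusted p = 2.97e-05) and 52.8-fold in KO (5.23 ± 0.64, adjusted p = 0.000959), and the KO level at EB5 was lower by 9.79 times (-3.43 ± 0.64, adjusted p = 0.0167). The genotypes overlapped at EB8 (-0.27, adjusted p = 0.798), and the difference between genotypes in the step from EB4 to EB5 was -2.88 with an adjusted p of 1.0. Dkk1 was at 17.3 and 8.8, 6.6 and 31.1, 91.3 and 142, and 9.5 and 20.1 in WT from ES to EB8, and at 5.0 and 7.1, 14.0 and 12.8, 51.2 and 27.2, and 17.9 and 17.0 in KO. Dkk1 rose and fell in WT (2.88 ± 0.69, adjusted p = 0.0380, and -2.95 ± 0.69, adjusted p = 0.0175), and its EB5 genotype difference of -1.58 had an adjusted p of 0.213. The rise of Dkk1 was lost with edgeR, with a pseudocount of 0.1, with no filter, on quantile normalisation and in a fit of only the groups compared. The Sfrp5 call between genotypes was lost without WT EB5 replicate 2 or KO EB5 replicate 2.

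In all, 9 members rose in WT from EB4 to EB5 (Wnt1, Wnt2, Wnt3a, Wnt5a, Fzd4, Wls, Porcn, Sfrp5 and Dkk1) and Fzd5 fell, or 10 of 42 (23.8%) against 3.73% of all genes (2.59% rose and 1.14% fell). In KO 3 were called as rising (Wnt3a, Fzd4 and Sfrp5), or 7.14% against 2.51% (1.82% rose and 0.695% fell). The median log2 change of the 42 genes over this step was 0.75 in WT and 0.86 in KO. Over all genes it was -0.01 and 0.01. No member was called for the difference between genotypes in this step, so fewer calls in KO do not show a smaller step. From ES to EB4, 13 changed in WT (31.0% against 16.5%, of which 8.98% rose and 7.57% fell), with rises of Fzd3, Fzd4, Fzd7, Fzd8, Lrp5, Lrp6, Frzb, Tcf7 and Tcf7l1, and 2 rose in KO (4.76% against 3.5%, of which 2.51% rose and 0.992% fell), Frzb and Tcf7. From EB5 to EB8, 16 changed in WT (38.1% against 10.4%), 8 in each direction (5.82% of all genes rose and 4.62% fell), and 0 in KO (0.738% of all genes), where 11 had an unadjusted p under 0.05 (12.8% of all genes), edgeR called 0 and DESeq2 called 3 (Wnt6, Wnt11 and Tcf7). The WT step calls that held without each single library were those of Fzd7, Fzd8, Lrp5 and Lrp6 from ES to EB4, Fzd4, Porcn and Sfrp5 from EB4 to EB5, and Sfrp5 from EB5 to EB8; in KO they were Fzd4 and Sfrp5 from EB4 to EB5. With a replicate block within genotype the KO counts were 6 from ES to EB4, 8 from EB4 to EB5 and 0 from EB5 to EB8, against 17, 12 and 19 in WT. A fit of only the groups compared, which has fewer libraries, called 0 of the 13 in WT from ES to EB4, 3 of the 10 from EB4 to EB5 and 0 in the KO steps.

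Promoter sequences were at hand for 7 of the 9 members that rose with RA in WT. The 250 bases before the annotated start are shown for Sfrp5 and Wnt1, the largest rises with a promoter at hand, and for Dkk1, the only one of the 7 that matched a motif searched. They are RefSeq sequences of build GRCm38.p6, on the strand of the gene and 5' to 3', in lower case with motif matches in capitals: chr19:42202253-42202502 (minus strand) for Sfrp5, chr15:98789607-98789856 (plus strand) for Wnt1 and chr19:30549497-30549746 (minus strand) for Dkk1.
Sfrp5: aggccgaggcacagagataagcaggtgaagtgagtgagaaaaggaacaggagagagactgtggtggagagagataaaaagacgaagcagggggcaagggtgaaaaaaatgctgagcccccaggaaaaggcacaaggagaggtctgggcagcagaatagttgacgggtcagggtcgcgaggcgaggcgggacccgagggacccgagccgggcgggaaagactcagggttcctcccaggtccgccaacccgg
Wnt1: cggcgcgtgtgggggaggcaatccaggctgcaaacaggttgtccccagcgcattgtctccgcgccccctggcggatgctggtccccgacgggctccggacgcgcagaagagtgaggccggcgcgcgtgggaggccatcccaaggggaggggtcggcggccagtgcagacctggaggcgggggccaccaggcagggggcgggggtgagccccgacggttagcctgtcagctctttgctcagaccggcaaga
Dkk1: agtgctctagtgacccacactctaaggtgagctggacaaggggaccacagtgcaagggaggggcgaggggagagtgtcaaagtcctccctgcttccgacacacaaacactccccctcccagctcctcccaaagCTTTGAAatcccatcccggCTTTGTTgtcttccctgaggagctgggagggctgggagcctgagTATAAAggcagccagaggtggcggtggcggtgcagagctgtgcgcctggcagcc

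The motifs were 4 words of the Tcf and Lef factors (the word CTTTGAA, the word CTTTGAT, the word CTTTGTA and the word CTTTGTT) and the TATA box word TATAAA, each searched on both strands over 300 bases, 250 before the start and 50 after it; the matches in Dkk1 do not overlap. Dkk1 held CTTTGAA at -117, CTTTGTT at -98 and TATAAA at -54, counted from the start. Over 32 members with a promoter in the table, 7 of 40 windows (17.5%) held a Tcf or Lef word, against 16.9% of all 32851 windows, and 7 (17.5%) held TATAAA, against 13.6%. A match is a run of letters and not a bound site.

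Among the nuclear effectors, Tcf7l1, a factor best known as a repressor in ESCs, was lower in KO at EB4, at 2265 and 1973 against 4267 and 4133 in WT (-0.99 ± 0.22, adjusted p = 0.0277). It overlapped between genotypes at ES (1796 and 2835 in KO, 2560.3 and 2444 in WT) and at EB8 (1890 and 1576 against 1829 and 1727). At EB5 it was at 2304 and 2582 in WT and 1375 and 2039 in KO. The EB4 call was lost without any single EB4 library. A gene on the other strand shares exon sequence with Tcf7l1 in the annotation, so its counts may hold some of that gene. Tcf7l2 was at 500 and 251, 427 and 563, 448 and 470.0, and 1213 and 986 in WT from ES to EB8, and at 403 and 305, 450 and 380.3, 597 and 608, and 479 and 531 in KO. It rose in WT at the last step (1.25 ± 0.29, adjusted p = 0.0182) and was lower in KO at EB8 (-1.12 ± 0.29, adjusted p = 0.0170), a call lost without WT EB8 replicate 1 or either KO EB8 library.

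Tcf7 rose from ES to EB4 in both genotypes by 1.24 on the log2 scale (adjusted p = 0.0110 in WT and 0.0323 in KO), and fell in WT from EB5 to EB8 (-1.41 ± 0.27, adjusted p = 0.00668). At EB8 its genotype difference was 0.50 (adjusted p = 0.210). Lef1, at 1.14 (adjusted p = 0.221) at EB4, 1.20 (adjusted p = 0.217) at EB5 and 0.66 (adjusted p = 0.399) at EB8, passed in no comparison. Axin2, the feedback target most used as a readout of the canonical branch, was at 1004 and 1073 in WT EB8 and at 766 and 460 in KO EB8, without overlap (-0.80, adjusted p = 0.197). Axin2 was not called in any of the 13 comparisons, and an opposite-strand transcript shares exon sequence with it.

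Of 66 other genes of the pathway, listed for their role, 63 could be tested. None passed between genotypes in ESCs. At EB4, 2 were higher in KO and 5 lower (2.75% and 3.37% of all genes), and at EB5 Notum was higher and Celsr2 lower (2.17% of all genes each way). At EB8, 3 were higher and 16 lower (10.4% and 12.5% of all genes), with a median log2 change of -0.34 against -0.03 over all genes, and both KO libraries lay below both WT libraries for 35 of the 63 and above for 14 (33.5% and 30.4% of all genes). Leaving out libraries gave 0 to 8 calls at EB4, 0 to 4 at EB5 and 9 to 21 at EB8, and other settings 0 to 11, 0 to 11 and 18 to 23. The planar polarity cadherin Celsr2 was at 9663 and 10740.2 in WT EB8 and at 661 and 565 in KO EB8 (-4.06 ± 0.25), and Celsr3 was at 1261 and 1962 against 178 and 88.4 (-3.64 ± 0.30). The R-spondin receptor Lgr5 was at 769 and 1061 against 110 and 29.8 (-3.95 ± 0.83), and the antagonist Sostdc1 at 62.0 and 83.6 against 2.1 and 3.2 (-4.34 ± 1.16). Higher in KO were Cdx1, a homeobox gene of the posterior embryo (37.8 and 101.6 against 1398 and 1157; 4.33 ± 0.62), Notum, which removes the lipid from Wnt proteins (18.9 and 55.1 against 357 and 160; 2.84 ± 0.57), and the co-repressor Tle2 (90.3 and 83.6 against 348 and 275; 1.82 ± 0.45). For each of the 7 genes the libraries did not overlap, and all 7 had adjusted p-values between 7.53e-06 and 0.0184 (limma). Sostdc1 was at the floor of 3 reads in KO, so its fitted change depends on the pseudocount. The calls of Celsr2, Celsr3 and Cdx1 held without each library and each replicate number, whereas that of Sostdc1 was lost without any EB8 library, that of Lgr5 without KO EB8 replicate 2, that of Tle2 without either WT EB8 library or KO EB8 replicate 1, and that of Notum without all KO replicate 1 libraries.

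Cell type markers differed between genotypes beside the Wnt genes at every EB stage. The pluripotency list of 12 genes had 4 called higher in KO at EB4 and 5 at EB5, with median log2 changes of 1.86 and 2.27, and none was lower. Of all genes, 2.75% were higher at EB4 and 2.17% at EB5. Of 12 neural tube genes, 0 were called at EB4 (median -0.36) and 4 were lower at EB5 (median -1.99). Of 12 fibroblast genes, both KO libraries lay below both WT libraries for 8 at EB4 and 6 at EB5, with medians of -1.37 and -0.72 and 1 gene called lower at each. Over all genes, both KO libraries lay below for 26.6% at EB4 and 28.1% at EB5. The shares called lower were 3.37% and 2.17%. At EB8, of 12 tested neural tube genes, 10 were lower in KO and 0 higher, with a median log2 change of -4.60. Of 12 pluripotency genes, 10 were higher in KO and 0 lower, with a median of 3.72. Of 7 tested endoderm genes, 2 were lower, and of 12 fibroblast genes, 1 was lower. At this stage 10.4% of all genes were higher in KO and 12.5% lower. The part of these markers in the results for the Wnt genes was not tested.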

How the data were processed

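Polyadenylated RNA of 16 libraries (8 groups of 2) was sequenced by the authors. Per the submitters' processing notes the tools were CASAVA 1.7 and 1.8, TopHat2 2.0.10, HTSeq 0.5.4p3 and DESeq2 1.0.19 on build mm9; which annotation was used, and whether counting used strand, is not given in the sources used here. The deposited values are a signal, namely gene counts that the authors divided by a size factor for each library, so they are comparable between libraries but not between genes of different length. Undoing the size factors gave whole reads (tolerance 0.02), and reads were used only for depth, the floor of 3 reads and the count tests. Levels of different genes were compared per kb of exon, from the GENCODE M1 annotation of the same build.

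The 45 genes and the lists of other genes were chosen with earlier results of these data known. The 16124 genes whose mean reached 10 normalised counts were fitted in R 4.3.3 with limma 3.58.1 on log2(normalised count + 1), all 16 libraries together as 8 group means, with a trended prior, with Benjamini-Hochberg adjustment over all genes tested and a threshold of 0.05. A log2 change on this scale understates the change of low genes, and folds given as times are ratios of group means. The labels do not tie a replicate number to a line across stages, although chromosome levels followed the number in KO at every stage and in WT across the EB stages. The p-values and the standard errors, given after ± and as bars, measure only the spread between these samples. The floor of 3 reads covers counting error only. The authors used DESeq2 for normalisation and quantification; since the deposited values are no longer counts, a count model is only an alternative here. The alternatives were pseudocounts of 0.1 and 5, no filter, a mean of at least 50, upper-quartile and quantile scaling, only the groups compared, a replicate block, edgeR 4.0.16 and DESeq2 1.42.0 on the recovered reads, each library, or all libraries of a replicate number of a genotype, left out, and, chosen after seeing the data, chromosome levels subtracted. The script was tested on simulated data. Values in every library are given for genes called between genotypes or whose group means differed by at least 16 times with a highest value of at least 100, and at most 4 genes a direction are named of the pathway list. Figures were drawn with matplotlib 3.10.9.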

Additional observations from a re-analysis of the deposited data

Results flagged for a closer look

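For 9 genes the 2 KO libraries lay above both WT libraries at one stage and below both at another. Values are log2 changes, KO minus WT, and the switch itself was tested only where a difference between genotypes in a step is given (limma, 2 libraries a group); the rest was not tested. Non-overlap at a single stage was common among all genes, at 19.0% to 33.5% in a given direction. The share of all genes that switched sides in this way was not counted. The 9 genes are therefore no trait shown to be particular to the Wnt genes.

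Among ligands, Wnt4 was at -1.65 in ESCs and -1.20 at EB4 but 0.82 at EB5 (difference between genotypes from EB4 to EB5 2.02, adjusted p = 1.0). Wnt5a was at -0.69 in ESCs, 0.40 at EB4, -1.64 at EB5 and -1.82 at EB8 (differences 1.09, adjusted p = 0.772, from ES to EB4 and -2.04, adjusted p = 1.0, from EB4 to EB5). Wnt6 was at -1.05 in ESCs and 1.56 at EB5. Wnt7a was at -2.49 in ESCs, 1.05 at EB5 and -0.96 at EB8 (difference from EB5 to EB8 -2.01, adjusted p = 0.747). Wnt3 was at 0.37 at EB5 and -0.89 at EB8 (difference -1.26, adjusted p = 0.722).

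Among receptors, Fzd5 was at 0.76 in ESCs, -0.54 at EB4 and 1.18 at EB8 (difference from ES to EB4 -1.31, adjusted p = 0.543). Fzd9 was at 0.72 at EB5 and -1.57 at EB8 (difference -2.29, adjusted p = 0.136). Fzd10 was at 0.52 at EB4, 0.98 at EB5 and -1.51 at EB8, with the lowest adjusted p of these differences (-2.50, adjusted p = 0.0568). The effector Tcf7l2 was at 0.39 at EB5 and -1.12 at EB8 (difference -1.51, adjusted p = 0.150). No group had enough libraries for a check of single outlying samples.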

How the results depend on the processing

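The number of the 42 genes called between genotypes was 0 in ESCs, 6 at EB4, 6 at EB5 and 16 at EB8. DESeq2 called 3 in ESCs. A fit of only the groups compared called 0 at EB4 and 1 at EB5, and no filter left 2 at EB5. In WT the fit of only the groups compared called 0 from ES to EB4 and 3 from EB4 to EB5, where quantile normalisation gave 6. For KO from ES to EB4 the count of 2 became 1 with a pseudocount of 5 or no filter, 5 on upper-quartile rescaling, 0 with only the groups compared, 6 with a replicate block within genotype and 7 with DESeq2. For KO from EB4 to EB5 the count of 3 became 6 on upper-quartile rescaling, 0 with only the groups compared, 8 with the block within genotype, 10 with DESeq2 and 5 with chromosome levels subtracted. For KO from EB5 to EB8 DESeq2 gave 3 in place of 0. For the difference between genotypes from EB5 to EB8 a pseudocount of 5 and the block within genotype each gave 1 and DESeq2 gave 5, in place of 0. The cause was not tested, except that the fit of only the groups compared has fewer samples.

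Leaving out a library, or a replicate number of a genotype, gave 0 to 1 calls in ESCs, 0 to 7 at EB4, 0 to 7 at EB5 and 7 to 16 at EB8. In WT it gave 6 to 15, 2 to 10 and 3 to 16 in the 3 steps, and in KO 0 to 4, 0 to 6 and 0 to 0. The differences between genotypes in the 3 steps gave 0 to 0, 0 to 0 and 0 to 2. No called value changed sign. Of values not called, 3 changed sign at EB8: Wnt6 ranged from -0.17 (without KO EB8 replicate 1 or KO replicate 1) to 2.09, Fzd7 from -0.44 to 0.04 (without KO EB8 replicate 2 or KO replicate 2), and Sfrp5 from -0.62 to 0.07 (without WT EB8 replicate 1 or WT replicate 1).

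With a replicate block over all 16 libraries the counts between genotypes were 0, 7, 7 and 16, with no call lost and Fzd6 gained at EB4 and Sfrp1 at EB5; in WT from ES to EB4 the count went from 13 to 16. Within each group the log2 value of replicate 1 minus that of replicate 2 was taken for each gene. These replicate differences, and not the levels themselves, were correlated between groups. The correlations were 0.335, -0.058, -0.209 and -0.133 between genotypes from ES to EB8. Between successive stages they were -0.076, 0.605 and 0.57 in WT and 0.389, 0.422 and 0.233 in KO. With 2 pairs each and no label for pairing, the numbers were not taken as pairs, though within a genotype most steps deviated together. Genes near the floor of 3 reads, such as Wnt8a in WT EB8, are limited by depth, and 2 libraries a group limit the rest.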

Other observations

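The Wnt genes lie partly in pairs on the genome (build NCBI37). Wnt10b and Wnt1 lie 11706 bases apart on chromosome 15, on opposite strands. At EB8 Wnt1 was called lower in KO (-5.66) while Wnt10b was at -2.02 (adjusted p = 0.109, limma). For both genes the KO libraries lay below the WT libraries at EB5 and EB8. The missed threshold does not show that Wnt10b behaved otherwise than Wnt1. Wnt6 and Wnt10a lie 6196 bases apart on chromosome 1, Wnt3a and Wnt9a 16175 bases apart on chromosome 11, and Wnt9b and Wnt3 24328 bases apart on chromosome 11. None of these 6 genes was called between genotypes at any stage, so their pairs cannot show whether neighbours share calls.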
